A study of Mus musculus with 1 sample.

Results

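The genes examined here encode the core machinery of programmed cell death: the BCL2 family, caspases, factors released from mitochondria, inhibitor of apoptosis proteins (IAPs), the death receptor complex, and the necroptosis and pyroptosis executioners. They were 36 genes chosen by name for their role, and each was found by its symbol as a single row among 23238 gene symbols. They were measured by RNA-seq in 1 library of mixed glia grown from the ventral midbrain (VM) of outbred ICR(CD-1) mouse pups. The labels give the age as postnatal day 5 and the title as Cont, and the column header adds DMSO, the vehicle of the study, so the library is called the control below. The study asked how an inhibitor of the kinase SGK1 changes such glia, and glia given the inhibitor were left out of the present account. The treatment notes also mention toxins, and whether this culture received any was not stated. There was therefore no contrast between groups, no replicate and no test, and every difference below is a difference between genes within this library.

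The culture was a mixture, plated from dissected VM tissue and subcultured once confluent, and the number of pups behind it was not given. All 8 microglia markers were detected at a normalised read count of 10 or more (lowest Tmem119 at 984, highest C1qa at 32619), as were all 6 astrocyte markers (S100b at 604 to Gfap at 17222). The 6 mesenchymal markers ran from Lum at 455 to Acta2 at 26499, and all 6 oligodendrocyte lineage markers were detected, with Sox10 lowest at 48. Neuronal markers were low, with 3 of 6 detected and the highest, Tubb3, at 124, while Slc17a6 was listed at 0. Of 5 endothelial markers 3 were detected, Flt1 at 2427 being the highest and Tek being listed at 0. None of the 4 lymphocyte markers was detected, the highest being Ncr1 at 4, and of 3 neutrophil markers with a row 2 were (S100a9 at 2 to S100a8 at 129). Which of these cells carried each transcript below was not tested. In a bulk library, fewer cells of a type and less RNA per cell cannot be told apart.

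Apoptosis by the mitochondrial route is set by contacts between members of the BCL2 family. Pro-survival members hold the effectors BAX and BAK in check, BH3-only proteins relieve that block or engage the effectors directly, and active effectors open the outer mitochondrial membrane. Cytochrome c then joins APAF1 and caspase-9 in the apoptosome, while SMAC and HTRA2 displace IAPs from caspases. Death receptors use FADD and caspase-8 instead, with cFLIP as a brake, and when caspase-8 is blocked, RIPK1 and RIPK3 can pass the signal to MLKL, which breaches the plasma membrane in necroptosis. Microglia and astrocytes are long-lived cells that carry much of this machinery as inactive precursors, so a transcript level describes capacity for the protein and not death.

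The contact between family members runs through the BH3 motif, a helix with a conserved leucine and aspartate. The coding stretches below are shown because they are the shared element of the family, from the highest (Mcl1) to the lowest (Bik) of the 36 genes. They were taken from GENCODE M21 transcripts on GRCm38, span 10 codons each, and lie within a single coding exon. Capitals mark the leucine codon and the pair of codons for the small residue and the aspartate.

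Mcl1: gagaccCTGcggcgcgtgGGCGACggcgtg
Bcl2l1: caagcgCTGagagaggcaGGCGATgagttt
Bax: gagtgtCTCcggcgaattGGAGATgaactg
Bak1: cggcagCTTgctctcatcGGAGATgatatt
Bcl2l11: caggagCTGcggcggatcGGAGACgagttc
Bad: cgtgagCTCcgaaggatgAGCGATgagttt
Bik: ttgaggCTGgcctgcatcGGCGATgagatg

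These stretches lie at chr3:95659430-95659459 (plus strand) for Mcl1, chr2:152829700-152829729 (minus strand) for Bcl2l1, chr7:45466000-45466029 (minus strand) for Bax and chr17:27022534-27022563 (minus strand) for Bak1. For Bcl2l11 the position is chr2:128147144-128147173, for Bad chr19:6950786-6950815 and for Bik chr15:83543078-83543107, all on the plus strand. A pattern of leucine, any 3 residues, a small residue, aspartate and then aspartate, glutamate, glycine, glutamine or lysine was found in 14 of the 15 BCL2 family genes, the exception being Bcl2l2. The same pattern occurred in 12.15% of 21764 coding genes, so it is loose on its own. Between 78 pairs of such stretches in the family, with Pmaip1 left out, 11 to 21 of 30 bases were identical. The most similar of these pairs was Bcl2l11 and Bbc3.

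Cell death genes were broadly present in the control glia. A normalised read count of 10 or more was reached by 35 of the 36 genes, against 67.2% of all 23282 rows and 70.6% of protein-coding rows. The median of the 36 genes was 635, beside 469 for all 15648 detected genes. Values above that median of 469 were found for 22 of the 36, while 33.6% of all rows exceeded it. To compare genes of different length, each value was also divided by the kilobases of annotated exon and expressed per 1000000 of the summed values, a quantity called the level below. On that scale the median of the 36 was 4.15 against 3.72 for the detected genes, and 21 of the 36 were above the latter, beside 33.8% of all rows with an exon length. The machinery as a whole therefore sat close to the middle of the detected genes on both scales. Its values ranged from 3 to 6618, and the 5 highest genes held 48.8% of the summed value of the 36.

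**Figure D1:**
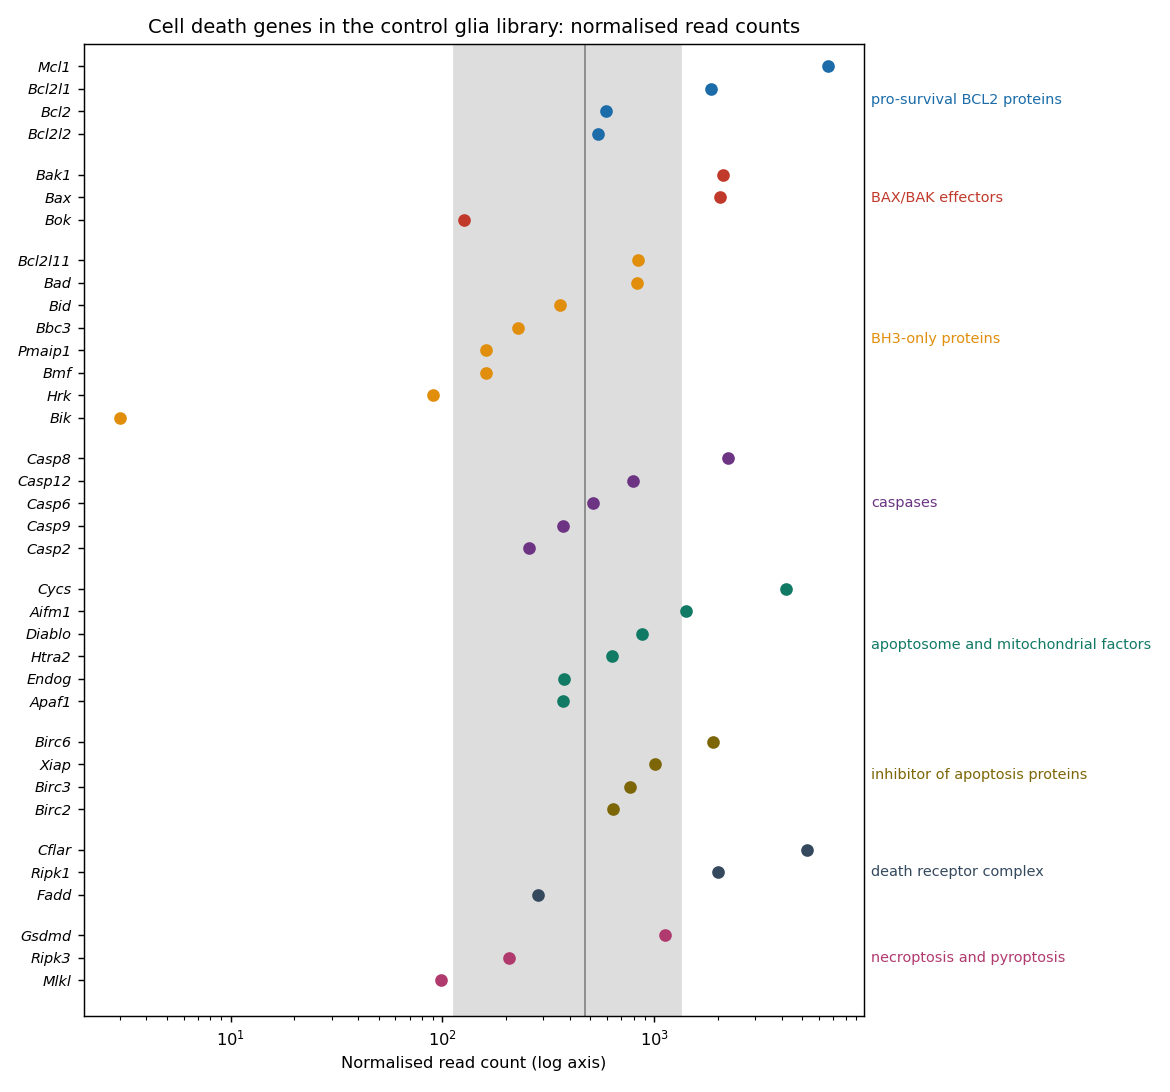
Normalised read counts (horizontal, log axis) of the 36 cell death genes in the control glia library, grouped by role, 1 point per gene. The grey band spans the lower to the upper quartile of all detected genes (114 to 1344) and the line is their median (469). Mcl1, Cflar and Cycs lie farthest to the right, and Bik at 3 lies alone on the left.

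Among the 4 pro-survival BCL2 genes of the 36, Mcl1 was far above the others. Mcl1, which encodes a short-lived protein that binds BAK and BH3-only proteins, had a normalised read count of 6618, above 96.0% of detected genes, and a level of 70.2. It was the highest of all 36 genes on both scales and made up 76.6% of the summed level of the 4 pro-survival genes. With coding length in place of exon length, Mcl1 ranked 2 of the 36. Bcl2l1, which encodes BCL-XL, was next with a normalised read count of 1861 and a level of 14.7. Bcl2l2, which encodes BCL-W, had a normalised read count of 544 and a level of 4.42. Bcl2, the founding member of the family, was lowest by level, with a normalised read count of 591 over 9157 exon bases and a level of 2.34. The log2 ratio of the levels of Mcl1 and Bcl2 was 4.91, and the level of Bcl2l1 was 6.29 times that of Bcl2. Both ratios stayed above 1 with every gene length tried, although their size depended on it: on the log2 scale, Mcl1 over Bcl2 ran from 2.997 to 4.91 and Bcl2l1 over Bcl2 from 1.65 to 3.14. Exons of Bcl2 overlap an antisense RNA gene on the opposite strand and those of Bcl2l2 a readthrough gene on the same strand, and the strand setting of the counting was not stated.

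A further set of pro-survival genes, the Bcl2a1 copies encoding A1 proteins, was not among the 36 but was high in this library. Bcl2a1b had a normalised read count of 4724, Bcl2a1d 2278 and Bcl2a1a 1636. Their transcripts are 98.2% to 99.1% identical over at least 817 bases, so reads cannot be placed securely among them, and only their sum of 8638 is used. That sum corresponded to a level of 378, because these genes have short annotated exons. It amounted to 80.5% of the level of all pro-survival genes once the copies were included, and to 47.3% of their normalised read counts. A1 is known as a gene of blood-derived and myeloid cells, and the microglia markers ranged from 984 to 32619 in the same library. Their part in the A1 value was not tested.

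The effectors BAX and BAK, which form the pores in the outer mitochondrial membrane, were above 83.3% (Bax) and 83.8% (Bak1) of detected genes by normalised read count. Bak1 had a normalised read count of 2105 and a level of 31.7, and Bax a normalised read count of 2048 and a level of 47.1. The normalised read counts of the pair were thus nearly equal, and the level of Bax was 1.49 times that of Bak1. The log2 ratio of Bax over Bak1 ran from -0.04 without division by length to 1.08 with the longest transcript, so no order between them is given. Bok, a relative of BAX and BAK whose activity is regulated by protein turnover, was much lower, with a normalised read count of 127 and a level of 2.50. It made up 3.08% of the summed level of the 3 effectors. Exons of Bax are shared in part with Gm45808, which runs in the same direction, and those of Bak1 overlap Ggnbp1, at a normalised read count of 200, on the opposite strand.

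Summed over the 4 pro-survival genes, the level was 91.7, and over the 3 effectors it was 81.4, a log2 ratio of 0.17. This ratio was positive with each gene length tried, from 0.03 to 1.17. With the Bcl2a1 copies added, an alternative chosen after the data were seen, the pro-survival sum was 5.77 times that of the effectors. How the protein amounts compare was not measured.

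By median, BH3-only genes formed the lowest class of the BCL2 family. These proteins act as sensors that are induced or activated by particular stresses. All 8 were below both Bax and Bak1 in level, and this held for each of the 4 treatments of gene length. Their median normalised read count was 194 and their median level 2.90, the lowest of the 8 roles on both scales, although caspases (3.35) and the necroptosis and pyroptosis genes (3.26) had median levels close to it. With coding length in place of exon length, the BH3-only median ranked 6 of 8, so the place at the bottom depends on the length used. Together they held 13.5% of the summed level of the 15 BCL2 family members. Not every BH3-only gene was below every other family member. Bad (11.7), Bbc3 (3.88), Bcl2l11 (3.80) and Bid (3.66) were above both Bcl2 (2.34) and Bok (2.50) in level. Pmaip1, Bmf, Hrk and Bik were below both.

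Within the BH3-only class the levels spread widely. Bad, which encodes a sensor controlled by survival kinases through phosphorylation, had the highest level, 11.7, from a normalised read count of 827. Bcl2l11, which encodes BIM and binds all pro-survival members, had the highest normalised read count, 841, but a level of 3.80 because its annotated exons span 8029 bases. Bbc3, which encodes the p53 target PUMA, had a normalised read count of 227 and a level of 3.88. Bid, which caspase-8 cleaves to link death receptors to mitochondria, had a normalised read count of 358 and a level of 3.66. These last 3 genes lay within 3.66 to 3.88 in level and cannot be ordered.

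The remaining BH3-only genes were lower. Pmaip1, which encodes NOXA, a partner of MCL1, had a normalised read count of 161 and a level of 2.14. Bmf, which encodes a sensor linked to the cytoskeleton, was likewise at 161, with a level of 1.11. Hrk, a gene best known from neurons, had a normalised read count of 90 and a level of 0.58. Bik, known from epithelial and B lineage cells, was the only gene of the 36 below the detection minimum, at a normalised read count of 3. The BH3 stretch of Bik given above therefore belongs to a gene with next to no transcript here. Exons of Bid overlap Bcl2l13, at a normalised read count of 722, and those of Bad overlap Gpr137, both on the opposite strand.

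**Figure D2:**
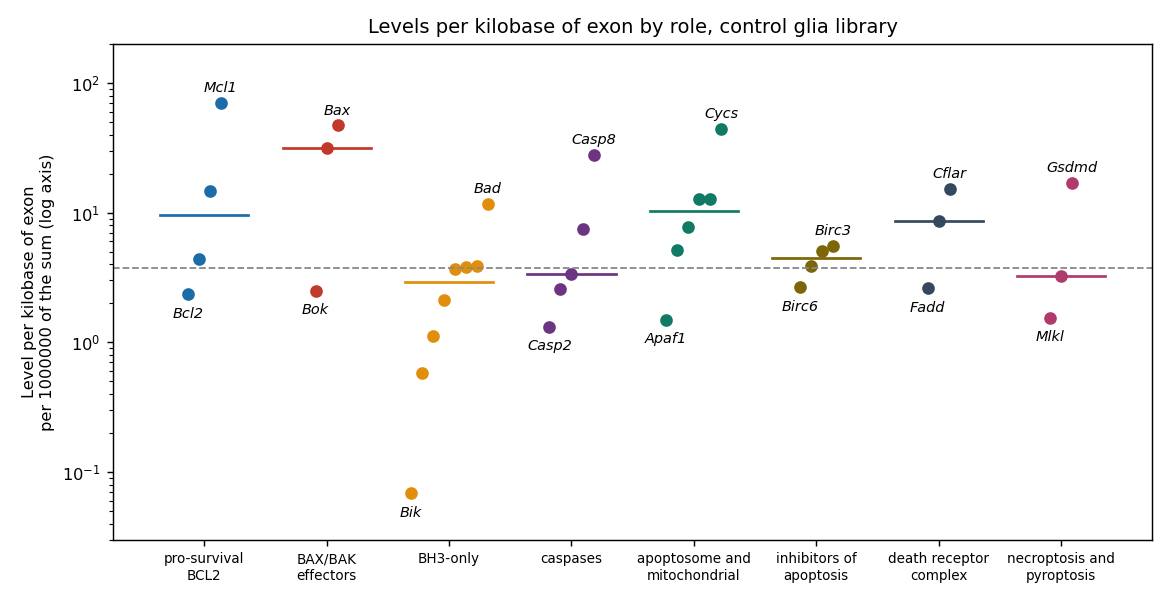
Levels of the 36 genes (vertical, log axis), expressed per kilobase of annotated exon and per 1000000 of the summed values, by role. Points are genes, the solid bars are role medians, the highest and lowest gene of each role are named, and the dashed line is the median of detected genes (3.72). The median of the BAX/BAK effectors (31.7) is the highest and that of the BH3-only genes (2.90) the lowest.

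The caspases are the proteases that start and carry out apoptosis. Casp8, the initiator caspase of death receptors, dominated this role, with a normalised read count of 2238 and a level of 28.1, or 65.6% of the summed level of the 5 caspase members. Casp12, which belongs to the inflammatory caspase cluster and has been linked to endoplasmic reticulum stress, had a normalised read count of 792 and a level of 7.48. Casp6, an executioner that cleaves nuclear lamins, had a normalised read count of 516 and a level of 3.35. Casp9, the initiator of the apoptosome, had a normalised read count of 370 and a level of 2.58, and Casp2, an initiator tied to DNA damage and chromosome number, a normalised read count of 256 and a level of 1.32. The initiator of the death receptor route thus stood well above Casp9, the initiator of the mitochondrial route, both in normalised read count and per kilobase of exon. Exons of Casp9 overlap Cela2a and Ctrc on the opposite strand.

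Among other caspases, the inflammatory members were at 1128 for Casp1 and 501 for Casp4, and Casp14, a caspase of the epidermis, was at 7.

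The apoptosome scaffold and its ligand differed sharply in level. Cycs, which encodes cytochrome c, an electron carrier of respiration that becomes a death signal once released, had a normalised read count of 4174 and a level of 44.5. Apaf1, which encodes the scaffold that cytochrome c activates, had a normalised read count of 372 and a level of 1.49, the lowest of this role. The Cycs value carries an uncertainty of its own. Transcripts of 10 other annotated genes, most of them processed pseudogenes, matched it over at least 200 bases with at least 90% identity, 3 of them above 99%, and none of the 10 had a row. Where such reads were placed was not stated. Casp9 had 1.73 times the level of Apaf1, but their normalised read counts of 370 and 372 were alike.

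The remaining mitochondrial factors lay between these extremes. Aifm1, which encodes the flavoprotein AIF, had a normalised read count of 1411 and a level of 12.8. Endog, which encodes a mitochondrial endonuclease, had a level of 12.7 from a normalised read count of 373, since its exons span only 1063 bases, the fewest among the 36 genes. Htra2, which encodes a protease of the intermembrane space, had a normalised read count of 631 and a level of 7.77. Diablo, which encodes the IAP antagonist SMAC, had a normalised read count of 878 and a level of 5.16. Htra2, Endog and Diablo each overlap other genes on the opposite strand (Loxl3 and Aup1 for Htra2, Spout1 for Endog, and B3gnt4 for Diablo). Diablo also overlaps a gene on the same strand.

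IAPs, which bind caspases or mark signalling proteins with ubiquitin, showed the narrowest range of all roles by level, from 2.65 to 5.54. Birc3 and Birc2, which encode cIAP2 and cIAP1 and keep RIPK1 in its survival form, had levels of 5.54 and 5.06 from normalised read counts of 765 and 639. The pair are neighbours on chromosome 9, Birc2 at 7818227 to 7837064 and Birc3 at 7848699 to 7873186, 11634 bases apart on the minus strand. Xiap, the direct caspase inhibitor of the family, had a normalised read count of 1006 and a level of 3.85, and a related gene, Gm17791, is 91.8% identical to it over 1504 bases. Birc6, which encodes the giant ubiquitin ligase BRUCE, had the highest normalised read count of the role, 1885, and the lowest level, 2.65, since its exons span 25772 bases. An antisense gene overlaps it. Diablo, the antagonist, had 1.34 times the level of Xiap, but the log2 ratio ran from -0.20 to 0.87 with the gene length used, so neither was consistently higher.

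Among the 3 genes of the death receptor complex, the brake Cflar was the highest. Cflar, which encodes cFLIP, a caspase-8 relative that lacks catalytic activity, had a normalised read count of 5287, above 94.6% of detected genes, and a level of 15.1. Ripk1, the kinase and scaffold below TNF receptors, had a normalised read count of 1995 and a level of 8.67. Fadd, the adaptor that brings caspase-8 to receptors, was lowest, with a normalised read count of 282 and a level of 2.62. Cflar and Casp8 are neighbours on chromosome 1, at 58711508 to 58758884 and 58795374 to 58847503 on the plus strand, with 36489 bases between them. Which of the pair was higher could not be decided. Cflar over Casp8 gave a log2 ratio of -0.89 per kilobase of all annotated exon, where Cflar has 12669 bases, and -0.11 with the longest transcript, but 1.29 with coding length and 1.24 without division. Exons of Fadd overlap an antisense gene, those of Cflar match a further gene, Gm9845, over 598 bases without a difference, and those of Ripk1 overlap Serpinb6a on the opposite strand and a pseudogene on the same strand.

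The receptors that feed this complex and their ligands both covered a wide range. All 5 death receptors were detected, from Tnfrsf25 at a normalised read count of 11 to Tnfrsf1a at 3368, with Fas at 1688, and their median was 1688. Of 4 ligands, 3 were detected, with Tnf at 810, Tnfsf12 at 480 and Tnfsf10, which encodes TRAIL, at 32, while Fasl was at 3. All 7 regulators of the receptor complex were detected, from Tradd at 300 to Tnfaip3 at 1602. The receptor and ligand medians, 1688 and 256, are given as a description.

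Necroptosis genes were among the lower members, in contrast to the pyroptosis executioner. Ripk3, the kinase that commits cells to necroptosis, had a normalised read count of 206 and a level of 3.26. It was above 34.0% of detected genes by normalised read count and above 47.1% by level. Mlkl, its membrane-breaching substrate, had a normalised read count of 98 and a level of 1.54. The log2 ratio of Mlkl over Ripk3 was -1.08 and stayed between -1.10 and -1.03 with every gene length, the narrowest range of the 9 ratios examined. The choice of length could hardly move this ratio, because both genes are nearly equally long. Ripk3 and Mlkl have 2292 and 2303 exon bases, and 1458 and 1416 coding bases. Ripk1 exceeded Ripk3 in level by 2.66 times, with log2 ratios from 1.41 to 3.28. The order Ripk1, Ripk3, Mlkl therefore held for all 4 treatments of length. None of the exons of Ripk3 or Mlkl overlap another annotated gene.

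RIPK1 and RIPK3 join through the RHIM motif, a short stretch that stacks the kinases into fibrils. The coding stretches are shown because they carry the contact between the kinases whose levels differed, with capitals on the 4 core codons.

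Ripk1: tctggtATTCAGATTGGAaaccac
Ripk3: tctgaaGTGCAGATTGGGaactac

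They lie in single coding exons at chr13:34030072-34030095 (plus strand) and chr14:55785299-55785322 (minus strand) on GRCm38 and share 18 of 24 bases. The core pattern was found in 2.23% of 21764 coding genes.

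Gsdmd, which encodes gasdermin D, the pore-forming protein cut by inflammatory caspases in pyroptosis, stood apart from the necroptosis genes. It had a normalised read count of 1119 and a level of 17.1, or 78.0% of the summed level of the 3 genes in this role. Its exons overlap no other gene. Gsdme, a relative listed under its older symbol Dfna5, had a normalised read count of 20. Casp1, one of the inflammatory caspases, was at 1128. The microglia markers detected in this library ranged from 984 to 32619, and their part in the Gsdmd and Casp1 values was not tested.

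**Figure D3:**
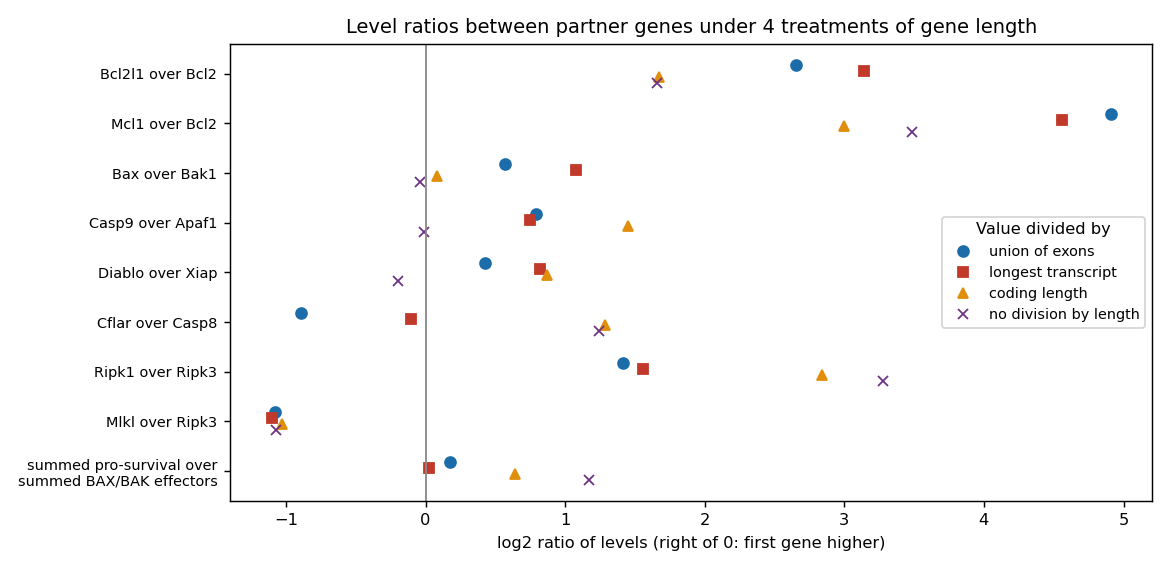
Log2 ratios of levels (horizontal) for 9 partner pairs or sums, with the value divided by the union of annotated exons, the longest transcript or the coding length, or not divided. Points right of 0 have the first-named gene higher. Mlkl over Ripk3 stays near -1.1 throughout, whereas Cflar over Casp8 runs from -0.89 to 1.29 and changes sign.

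Of 42 further genes in 7 lists, 37 were detected, beside 67.2% of all rows and 70.6% of protein-coding rows, with a median normalised read count of 557.5. Among BCL2 relatives, Bnip3l and Bnip3, mitophagy receptors induced by low oxygen, were at 4225 and 1283, and Bcl2l10 and Bcl2l14 were listed at 0. The values of Bnip3 and Bnip3l are uncertain, because pseudogene copies are up to 98.9% identical to Bnip3 and 99.2% identical to Bnip3l. Among other BIR-domain genes, Birc5, which encodes survivin, a mitotic protein, was highest at 945 and Birc7 was lowest at 1. The Naip genes share stretches of over 90% identity and ran from Naip1 at 45 to Naip2 at 807. The longest such stretch with Naip2 spanned 1233 bases, beside at least 4280 between each pair of Naip1, Naip5 and Naip6. Of the substrates and late executioners, Parp1 was at 4723 and Ninj1, which ruptures the plasma membrane of dying cells, at 2962, while the apoptotic nuclease gene Dffb was at 86 and its inhibitor gene Dffa at 383.

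**Figure D4:**
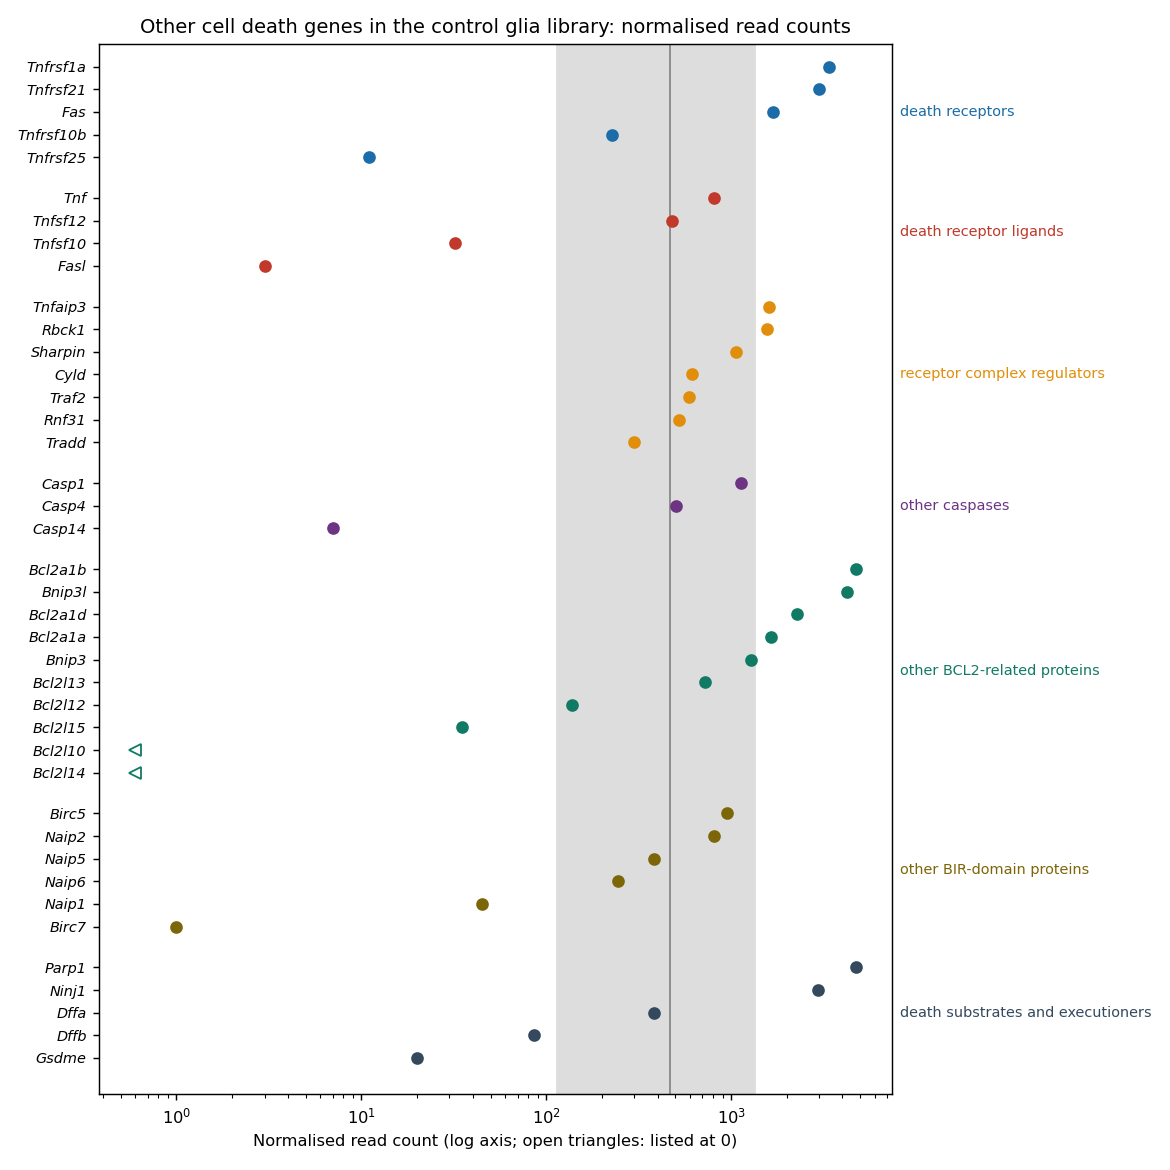
Normalised read counts (horizontal, log axis) of other cell death genes in the control glia library, by list (genes not reported here are left out), 1 point per gene, with open triangles for genes listed at 0. The grey band and line are the quartiles and median of detected genes (114, 469 and 1344). Bcl2a1b, Parp1 and Bnip3l lie farthest to the right.

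Cell death genes with a promoter window had CG-rich start sites at the median, as detected genes in general did. RefSeq promoter windows on GRCm38, from 250 bases before to 50 after the start, were held for 32 of the 36. Where a gene had several windows, the highest count among them was used. The median number of CG pairs was 21.5 for these genes, 21 for 11613 detected genes and 8 for all 27025 genes with a window. Casp12, Casp8, Birc3 and Mlkl had few CG pairs, with 3, 5, 7 and 7, while Apaf1 and Bcl2 had 46 and 44. Cflar had 12 and Mcl1 33, so high values occurred with windows of both kinds. A κB consensus match on either strand, in any window of a gene, was found for 6 of the 32. It was found for 12.25% of detected genes with a window and 9.55% of all. The 6 were Aifm1, Bbc3, Bcl2l1, Bmf, Hrk and Xiap, and a match of letters in such a window says nothing on binding. Bbc3, Bcl2l1, Bmf and Xiap had 3 windows each, so more windows were searched for them than for Aifm1 and Hrk, with 1 each. Across the 36 genes, normalised read count and exon length went together weakly (Spearman rho 0.22, across genes, which share 1 library and are not replicates).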

How the data were processed

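One RNA-seq library of control VM-glia was analysed. Per the study's methods, the authors trimmed for quality under 20, mapped reads to GRCm38/mm10 with STAR and counted reads on exons of RefSeq Release 105 genes with HTSeq-count, also deriving FPKM values. The submitters' processing notes name mm10, TopHat and edgeR instead. Versions, strand setting, treatment of multi-mapped reads and the normalisation were not given in the sources used here. The deposited values are whole numbers, summing to 27569507 over 23282 rows, that the authors call normalised read counts, and they were therefore treated as a score and not as raw counts. The sequenced depth is unknown, so no interval or detection floor is given.

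The 36 genes were matched by symbol, and detection was set at 10 or above. Exon lengths, positions and overlaps came from GENCODE M21 (GRCm38), which is not the annotation the authors counted on, and 22875 rows (98.3%) were matched. Levels are values per kilobase of the union of exons and per 1000000 of the sum. Percentiles are shares of detected genes with a lower value. The code for the ratios was tested on simulated data with known levels and the same exon lengths, which checks the calculation only. All 36 genes are named, and of the other lists the highest, the lowest and those at 0, with further genes chosen after their values were seen. A few genes of these lists are not reported here. The genes, lists and comparisons were chosen with earlier results of these data known. Reading frames were scanned for motifs, and near-identical transcripts (at least 90% over 200 bases) were found with BLAST 2.17.0. Scripts ran under Python 3.11.15 with Biopython 1.88, pandas 2.3.3, matplotlib 3.10.9, scipy 1.17.1 and numpy 2.4.6. Alternatives covered the detection minimum, gene length, ranking pool, overlapping genes, mean or median, and the total.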

Additional observations from a re-analysis of the deposited data

How the results depend on the processing

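With 1 library there is no spread between replicates, so a value was taken as moved when it changed by more than 1.5 times or by more than 10 percentile points. Ranks of the role medians by level, added after the data were seen, were taken as moved when they changed by more than 1 place. Of 97 alternative values, 61 were within these ranges, 31 moved and 5 changed sign. Detected genes among the 36 and among the 42 other genes stayed within 1.5 times at each minimum tried, as did the members' sum per 1000000 without Rn45s or the 10 highest genes. The cause of the shifts was not tested, except that a higher pool minimum lowers every percentile by construction.

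The median percentile among detected genes was 43.6 per kilobase for BH3-only genes, 71.8 for mitochondrial factors, 53.9 for IAPs, 69.3 for the death receptor complex and 47.1 for necroptosis and pyroptosis. Ranked among genes at 100 or more, it was 12.7 for BH3-only genes, 37.6 for caspases, 48.9 for mitochondrial factors, 54.0 for IAPs, 14.1 for necroptosis and pyroptosis and 43.9 for all 36. Without genes with exon overlaps it was 88.8 for pro-survival genes, 26.5 for effectors, of which Bok alone was left, 76.1 for mitochondrial factors and 94.6 for the death receptor complex, of which Cflar alone was left. Averaging log2 values in place of the median put effectors at 62.9.

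Log2 ratios without division by length were 1.65 for Bcl2l1 over Bcl2, 3.49 for Mcl1 over Bcl2, -0.040 for Bax over Bak1, -0.0078 for Casp9 over Apaf1, -0.20 for Diablo over Xiap, 1.24 for Cflar over Casp8, 3.28 for Ripk1 over Ripk3 and 1.17 for pro-survival genes over effectors. With coding length they were 1.67 for Bcl2l1 over Bcl2, 2.997 for Mcl1 over Bcl2, 1.45 for Casp9 over Apaf1, 1.29 for Cflar over Casp8 and 2.84 for Ripk1 over Ripk3. With the longest transcript Cflar over Casp8 was -0.11. With the Bcl2a1 copies, added after the data were seen, pro-survival genes over effectors was 2.53. By rank of the median level among the 8 roles, mitochondrial factors went from 2 to 4 with the longest transcript and to 5 with coding length. With coding length, caspases went from 6 to 4, IAPs from 5 to 7 and BH3-only genes from 8 to 6.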
